A study of Mus musculus with 4 samples.

Results

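Erythroid cells, the red blood cell lineage, were picked out of hindlimb muscle cell suspensions by their globin transcripts. A barcode was taken as erythroid when Hba-a1, Hba-a2, Hbb-bs and Hbb-bt together gave 100 or more unique molecular identifiers (UMIs, each standing for 1 captured transcript) and 50% or more of its UMIs. That rule kept 102 of 21415 deposited barcodes, with no filter on genes or mitochondrial UMIs. The members were chosen by their UMIs of the 4 globins, so globin levels are given as a description; the split between the globin copies and the levels of all other genes were not used by the rule.

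The cells came from male S100GFPtg mice aged 2 months, in which the S100B promoter drives EGFP, either Sod1+/+ (WT) or Sod1-/- (Sod1KO). The tibialis anterior and gastrocnemius muscles of 4 mice per genotype were pooled, dissociated and sorted into live GFP+ and live GFP- cells, which gave 4 libraries, 1 for each genotype and sort. All groups carry the EGFP transgene, no barcode is tied to a mouse by the labels, and the 2 sorts of a genotype share 1 pool of mice. With 1 library per group there is no replicate check, so no test of a difference was made, and every interval below covers counting error only.

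Red blood cells mature from nucleated progenitors that fill up with haemoglobin, stop dividing, and lose the nucleus, the mitochondria and then the ribosomes. Haemoglobin is a tetramer of α-globin and β-globin chains, each holding a haem group, and adult mice make the α chain from Hba-a1 and Hba-a2 and the β chain from Hbb-bs and Hbb-bt. The youngest circulating red cells, reticulocytes, still hold globin mRNA, and a dissociated muscle can hold them because its vessels carry blood.

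The 2 α-globin genes lie at chr11:32283672-32284486 (Hba-a1) and chr11:32296492-32297310 (Hba-a2), and the 2 β-globin genes at chr7:103826523-103827928 (Hbb-bs) and chr7:103812524-103813923 (Hbb-bt), in RefSeq on build GRCm38.p6. The promoters are shown because the results turn on how the 2 copies of each chain share the transcripts. Each run is the 250 bases before the annotated start, 5′ to 3′ on the strand of the gene, from RefSeq on GRCm38.p6. Capitals mark matches on either strand to GATAA (the motif of GATA factors), to CACCC (a motif of KLF family factors), to CCAAT and to TATAA.
Hba-a1, chr11:32283422-32283671, plus strand: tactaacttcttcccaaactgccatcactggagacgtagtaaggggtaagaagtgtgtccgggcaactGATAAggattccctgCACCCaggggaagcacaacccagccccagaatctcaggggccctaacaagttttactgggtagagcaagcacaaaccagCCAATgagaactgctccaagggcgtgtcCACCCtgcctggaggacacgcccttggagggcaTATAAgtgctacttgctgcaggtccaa
Hba-a2, chr11:32296242-32296491, plus strand: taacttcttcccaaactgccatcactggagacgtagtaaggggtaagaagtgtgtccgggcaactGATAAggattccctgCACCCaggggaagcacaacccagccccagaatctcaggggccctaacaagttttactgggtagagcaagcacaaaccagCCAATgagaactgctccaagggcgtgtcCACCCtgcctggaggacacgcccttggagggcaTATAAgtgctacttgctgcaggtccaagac
Hbb-bs, chr7:103827929-103828178, minus strand: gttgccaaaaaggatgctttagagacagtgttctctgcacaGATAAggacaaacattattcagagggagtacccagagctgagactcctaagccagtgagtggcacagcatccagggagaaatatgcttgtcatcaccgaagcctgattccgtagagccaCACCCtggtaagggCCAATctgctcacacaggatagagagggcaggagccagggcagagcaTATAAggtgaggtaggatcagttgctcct
Hbb-bt, chr7:103813924-103814173, minus strand: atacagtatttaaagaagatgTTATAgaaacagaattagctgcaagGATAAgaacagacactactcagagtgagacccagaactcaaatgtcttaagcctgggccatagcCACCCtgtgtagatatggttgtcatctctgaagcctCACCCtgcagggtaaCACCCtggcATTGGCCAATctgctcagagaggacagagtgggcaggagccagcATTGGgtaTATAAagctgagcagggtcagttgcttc

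The Hba-a1 and Hba-a2 windows held the same 247 bases in 1 run, shifted by the 3 bases by which the annotated starts differ. The Hbb-bs and Hbb-bt windows matched at 178 of 257 aligned positions, with a longest shared run of 14 bases. All 4 windows held at least 1 match to each of the 4 motifs. Of 32851 RefSeq promoters with a window of the same length, 22.6% held GATAA, 52.0% CACCC, 33.8% CCAAT and 22.8% TATAA. A match is a description of the letters only. In the canonical GENCODE transcripts, Hba-a1 and Hba-a2 differed at 1 of 429 coding bases and Hbb-bs and Hbb-bt at 1 of 444. The 3′ untranslated parts of the α pair were the same over 90 bases, after which that of Hba-a1 ran on to 113 bases, while those of the β pair matched at 95 of 135 aligned positions. Of the 301 windows of 100 bases in the last 400 bases of the Hba-a2 transcript, 201 also occurred in Hba-a1, so the split of reads within each pair is uncertain where reads fall in shared stretches.

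The libraries labelled WT GFP+, Sod1KO GFP+, WT GFP- and Sod1KO GFP- held 81320146, 105954116, 21959719 and 101410418 UMIs. Any pair of libraries shared 1 to 13 barcode sequences, none of them an erythroid barcode. Sod1, the targeted gene, was listed at 89.9 and 96.3 UMIs per 1000000 UMIs outside the 4 globins (CPM) in the other barcodes of the WT and Sod1KO GFP+ libraries, and at 124 and 110 in those of the GFP- libraries. A 3′ tag can lie outside the deleted part of a gene, so these counts do not check the genotype labels.

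Erythroid barcodes were rare in every library. They were 11 of 5498 barcodes in WT GFP+ (0.200%, 95% Clopper-Pearson interval 0.0999 to 0.358%) and 25 of 7267 in Sod1KO GFP+ (0.344%, 0.223 to 0.507%). In the GFP- sorts they were 6 of 2052 in WT (0.292%, 0.107 to 0.635%) and 60 of 6598 in Sod1KO (0.909%, 0.695 to 1.17%). The intervals of the GFP+ pair overlapped and those of the GFP- pair did not. The GFP- intervals overlapped, however, with a minimum globin share of 80% (0.0531 to 0.498% in WT and 0.382 to 0.755% in Sod1KO) or 95% (0.0531 to 0.498% and 0.209 to 0.504%). They also overlapped under the cell filter of the study's methods (0.0372 to 0.526% and 0.388 to 0.809%).

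The barcodes held between 532 and 33416 UMIs with a median of 14659, and between 52 and 4709 genes with a median of 204. Their globin share ran from 51.8 to 98.2% with a median of 94.3%. Median UMIs per erythroid barcode were 15945 in WT and 14143 in Sod1KO for GFP+, with 16053 and 14273 for GFP-. At the threshold, the 14 members between 51.8 and 57.1% globin had a median of 3190.5 genes and the 17 barcodes just outside, between 41.5 and 49.9%, had a median of 3906 genes. No barcode with a globin share of 50% or more had fewer than 100 globin UMIs. Of the 102 members, 51 would pass the cell filter given in the study's methods, over 200 genes and under 10% mitochondrial UMIs, since 50 failed on genes and 4 on mitochondrial UMIs.

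**Figure D1:**
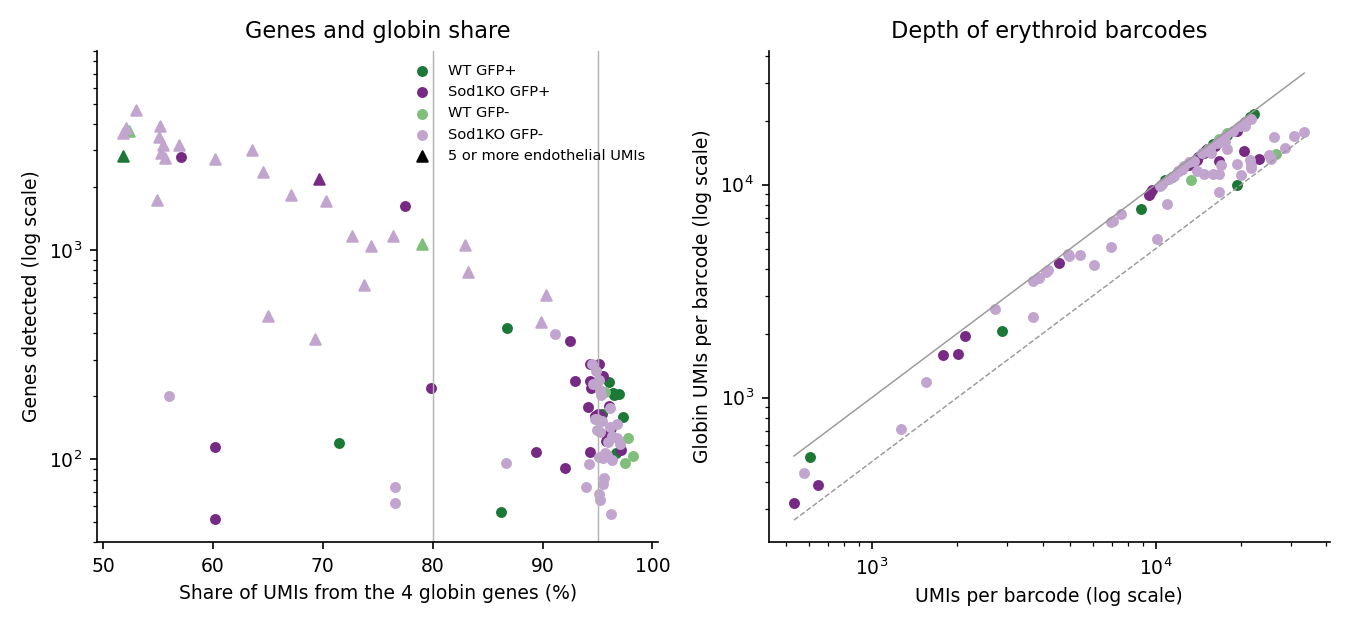
Each point is 1 erythroid barcode, coloured by library. Left, genes detected (log scale) against the share of UMIs from the 4 globin genes (%), with lines at 80 and 95% and triangles for barcodes with 5 or more endothelial marker UMIs; the triangles lie at low globin share and high gene number. Right, globin UMIs against all UMIs per barcode (both log scales), with the solid line at equality and the dashed line at the 50% rule.

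The members were of unequal purity. Between 50 and 80% globin lay 34 members with a median of 1779 genes, between 80 and 95% lay 26 with a median of 224.5 genes, and at 95% and over lay 42 with a median of 133 genes, here called globin-rich barcodes. Markers of endothelial cells (Pecam1, Cdh5, Flt1, Kdr, Fabp4, Cldn5) reached 5 or more UMIs in 25 of the 34 members at low globin share, in 4 of the 26 in the middle and in 0 of the 42 globin-rich barcodes, which allows a share of up to 7.14% (3 counts of the total). That cut is harder to reach at high globin share, since median UMIs outside the globins were 5136, 899 and 487 in the same order. Relative to those UMIs, markers of all other cell types held 1% or more in 27, 9 and 4 members. By library, members between 50 and 80% globin were 2 of 11 in WT and 6 of 25 in Sod1KO for GFP+, with 2 of 6 and 24 of 60 for GFP-.

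Summed over members, the endothelial list gave 3854 UMIs in 51 barcodes, from 3513 to 18947 CPM across libraries. The list of smooth muscle and pericyte markers (Acta2, Myh11, Tagln, Rgs5, Pdgfrb) gave 890 UMIs in 73 barcodes, from 958 to 5014 CPM. Mesenchymal markers gave 151 UMIs with Pdgfra and Lum at 0, Schwann cell markers 31, tenocyte markers 26 with Tnmd at 0, and myofibre markers 64 with Myh4 at 0. Neutrophil markers (S100a8, S100a9, Retnlg, Csf3r) and satellite cell markers (Pax7, Myf5, Chrdl2) were at 0 in all members, and platelet markers gave 9 UMIs. Macrophage markers gave 79 UMIs, of which 68 lay in 1 Sod1KO GFP+ barcode with 57.1% globin. In the globin-rich barcodes the endothelial list was at 756 CPM and the smooth muscle list at 1702, against 5453 and 7328 in all other barcodes of the series. The part of these other transcripts in the values over all members was not tested, so levels are given below for the globin-rich barcodes as well.

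The label was checked with Alas2, the first enzyme of haem synthesis in red cell precursors, Bpgm, which makes the bisphosphoglycerate that lowers the oxygen affinity of haemoglobin, and Mkrn1, an E3 ubiquitin ligase. Over all members Alas2 gave 1223 UMIs in 94 barcodes, Bpgm 1255 in 83 and Mkrn1 928 in 85. An Alas2 UMI was found in 10 of 11 members in WT and 22 of 25 in Sod1KO for GFP+, with 5 of 6 and 57 of 60 for GFP-. Among barcodes with 3 or more mesenchymal markers, which should lack Alas2, the share with a UMI was 0.737%, 0.863%, 3.97% and 2.02% in the same order, at median depths of 17163, 15487, 9841 and 18402 UMIs. A Bpgm UMI was found in 76.7 to 90.9% of members across libraries and in 19.5 to 23.5% of the mesenchymal barcodes, and a Mkrn1 UMI in 76.0 to 90.9% and 34.4 to 40.9%. The data did not go against the label on any of the 3 markers. The markers were chosen with results of these data known, so they are no independent support.

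The globin-rich barcodes held 21157 UMIs outside the 4 globins, and in these Alas2 and Bpgm were each at 21884 CPM and Mkrn1 at 15314. Against all other barcodes, the log2 ratio was 12.18 for Alas2, 10.02 for Bpgm and 8.88 for Mkrn1. Of the 55 genes of the erythroid lists with 20 or more UMIs over all members, 39 were 2-fold or more higher in the globin-rich barcodes than in other barcodes and 7 were 2-fold or more lower. Over all 1819 genes with that many member UMIs, 8.63% were higher and 31.4% lower by that measure. Because the lists were chosen with results of these data known, the counts describe them and are no independent support.

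**Figure D2:**
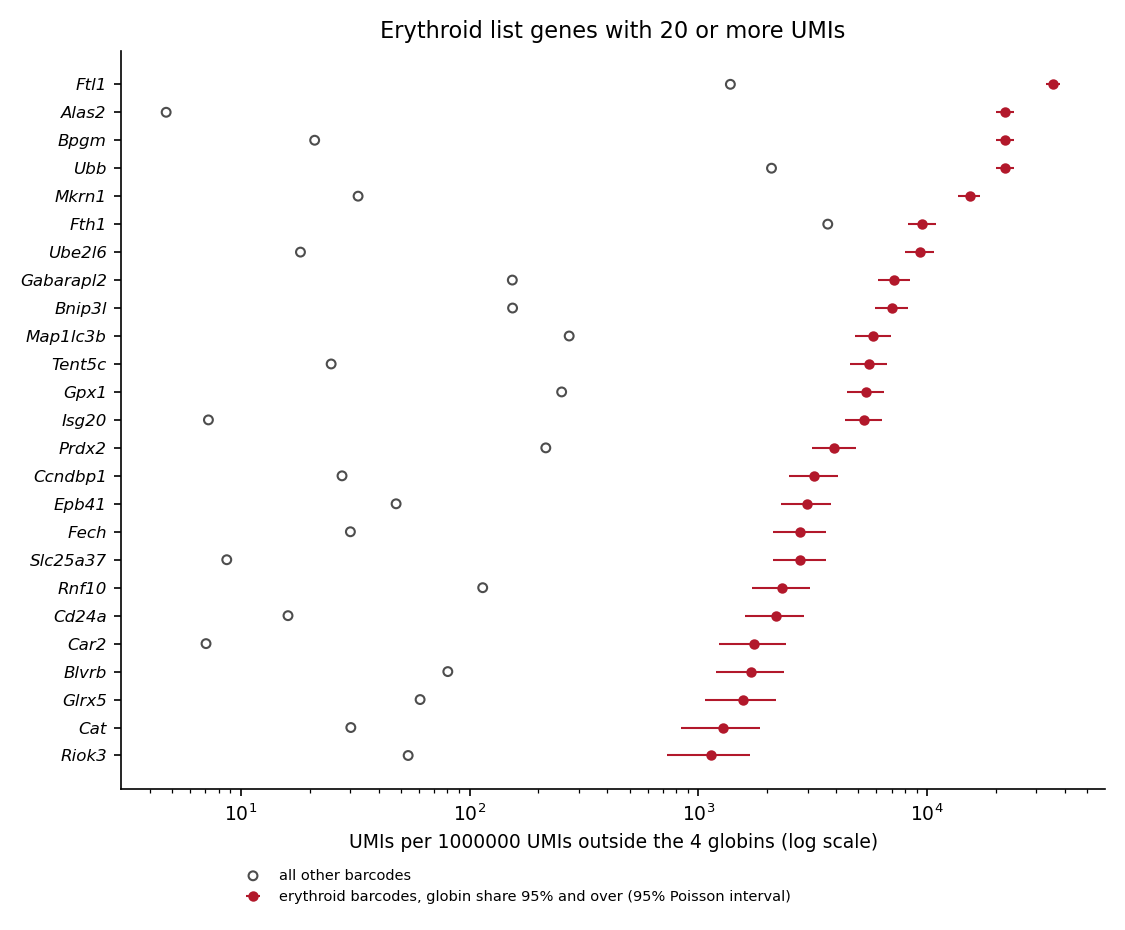
Levels of 25 of the 27 erythroid list genes with 20 or more UMIs in the globin-rich barcodes, as CPM, UMIs per 1000000 UMIs outside the 4 globins (log scale). Filled points are the 42 globin-rich barcodes with 95% Poisson intervals and open circles are all other barcodes of the 4 libraries; Ftl1 was highest at 35449, and Alas2 had the widest distance from its level in other barcodes among the genes drawn.

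Haem synthesis was represented at its 2 ends. Besides Alas2, only Fech, which inserts iron into the ring, reached 20 UMIs, with 181 in 65 members and 2789 CPM in globin-rich barcodes. The enzymes between them gave 19 UMIs for Urod, 5 for Alad, 2 for Ppox, 1 for Cpox and 0 for Uros. The upstream window of Alas2 is shown because it led the genes outside the globins; in it GATAA matched once, CACCC 3 times in a row on the other strand, and CCAAT did not match.
Alas2, chrX:150547167-150547416, plus strand: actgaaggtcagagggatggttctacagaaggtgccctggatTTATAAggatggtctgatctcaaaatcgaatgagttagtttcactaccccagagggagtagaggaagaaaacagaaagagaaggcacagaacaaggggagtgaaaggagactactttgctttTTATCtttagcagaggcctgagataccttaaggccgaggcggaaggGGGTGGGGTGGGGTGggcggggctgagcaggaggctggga

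Iron was represented by stores and mitochondrial carriers. The ferritin light chain Ftl1 was the most abundant list gene with 2056 UMIs in 100 of the 102 members, and the heavy chain Fth1 gave 884. In globin-rich barcodes they were at 35449 and 9500 CPM, a log2 ratio to other barcodes of 4.68 and 1.37. Slc25a37, mitoferrin, gave 163 UMIs (log2 ratio 8.33), Glrx5, which serves iron-sulphur cluster assembly, 107 (4.68), and Ncoa4, a ferritin receptor, 94 (4.78). Fam210b gave 21 UMIs and Tmem14c 24. Tfrc, the transferrin receptor through which precursors take up iron, gave 4 UMIs over all members, at 15.9 CPM against 13.5 in other barcodes. In globin-rich barcodes it was at 0 UMIs, a count that allows up to 142 CPM.

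Membrane genes were led by those of the red cell surface and skeleton. Tspo2 gave 25 UMIs in 16 members, with a log2 ratio to other barcodes of 12.92, and Slc4a1, the band 3 anion exchanger, gave 43 in 12. Epb41, protein 4.1, was the most widespread at 211 UMIs in 65 members (5.96), and Cd24a gave 97 in 40 (7.08). Aqp1 gave 416 UMIs over all members and 1 in the globin-rich barcodes (log2 ratio -3.58, -8.88 to -1.10). Cd47 gave 80 and 4, and the interval of its ratio held 0 (-0.46, -2.33 to 0.90). Of the 20 genes of this list, 8 reached 20 UMIs and 3 were at 0.

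The list of maturation and organelle clearance had 17 of 26 genes with 20 or more UMIs, of which 16 were 2-fold or more higher in globin-rich barcodes. Over all 1819 genes with that many member UMIs, 8.63% were higher by that measure. This list too was chosen with results of these data known, so the count describes it only. Ubb, a ubiquitin gene, gave 1740 UMIs (log2 ratio 3.39) and Ube2l6, a ubiquitin-conjugating enzyme, 525 (8.99). Bnip3l, the receptor that marks mitochondria for removal, gave 484 (5.50), and the autophagy genes Map1lc3b and Gabarapl2 gave 449 (4.42) and 412 (5.55). Isg20, an exonuclease, gave 270 (9.52) and Tent5c, a poly(A) polymerase, 295 (7.81). Ccndbp1, Rnf10, Riok3, Ube2o, Wdr26 and Bcl2l1 gave between 48 and 168 UMIs, with log2 ratios from 1.80 (Wdr26) to 6.86 (Ccndbp1). Btg2 was the exception, with 243 UMIs over all members and 0 in the globin-rich barcodes.

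Among red cell enzymes, Car2 (carbonic anhydrase) gave 155 UMIs in 25 members with a log2 ratio of 7.96, Blvrb (biliverdin reductase B) 149 (4.41) and Nt5c3, a nucleotidase, 41 (4.87). The glycolytic genes Gapdh, Aldoa and Ldha gave 89, 71 and 48 UMIs over all members and 4, 1 and 1 in the globin-rich barcodes. Of the antioxidant genes, Gpx1 (glutathione peroxidase) gave 546 UMIs (4.42), Prdx2 (peroxiredoxin) 325 (4.19), Cat (catalase) 66 (5.40) and Gclm, a subunit of glutathione synthesis, 71 (3.92). Prdx1, Gpx4, Txn1, Cyb5r3 and Sod2 gave between 22 and 97 UMIs, with 6 or fewer in globin-rich barcodes. Sod1 itself gave 20 UMIs over all members, 0 in WT and 1 in Sod1KO for GFP+, with 1 and 18 for GFP-. In the globin-rich barcodes Sod1 was at 0 UMIs, where the limit that a count of 0 allows is 142 CPM, above the 101 CPM of other barcodes, so a difference was not detectable at this depth.

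Genes of earlier stages gave few UMIs. In globin-rich barcodes a count of 0 allows up to 142 CPM, so it does not show absence. Of 11 erythroid transcription factors only Lmo2 and Klf3 reached 20 UMIs over all members (20 and 26), with 3 and 0 in globin-rich barcodes, and Gata1 and Klf1 were at 0. On its 3 UMIs, Lmo2 was higher in globin-rich than in other barcodes (log2 ratio 2.23). Of the early progenitor list Cd34 gave 49 UMIs, all in barcodes below 95% globin, and Kit and Myb were at 0. Of the cell cycle list Pcna gave 21 UMIs, with 0 in globin-rich barcodes, and Mki67 was at 0. Outside that list, Ube2c, of the anaphase-promoting complex, and Nusap1, a spindle protein, gave 32 and 12 UMIs in globin-rich barcodes. Their log2 ratios to other barcodes were 6.53 and 5.84. The embryonic globins Hba-x and Hbb-y gave 1 UMI each and Hbb-bh1 and Hbb-bh2 gave 0, while the θ-like genes Hbq1a and Hbq1b gave 13 and 9. The chaperone Ahsp was not analysed here.

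The rest of the globin-rich transcriptome also differed from that of other barcodes. Malat1, a long RNA retained in the nucleus, took 0.0993% of UMIs outside the globins (0.0615 to 0.152%), against 1.89% in other barcodes. Ribosomal protein genes took 5.69% against 9.54%, and the 13 mitochondrial genes 5.63% against 4.86%. The direction of the mitochondrial share differed between libraries. In GFP+ it was 4.55% against 4.69% in WT and 3.63% against 4.56% in Sod1KO. In GFP- it was 14.4% against 3.98% in WT, from 4 globin-rich barcodes, and 5.67% against 5.50% in Sod1KO. Gm42418, a gene model that overlaps ribosomal RNA, took 24.4% against 3.75%. Malat1 was at 993 CPM in globin-rich barcodes and at 8611 CPM in members between 50 and 80% globin, the group in which most endothelial markers were found.

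Outside the lists, the genes with the largest lowest log2 ratio of members to other barcodes over both Sod1KO libraries were led by Apol11b, an apolipoprotein L gene (67 UMIs, lowest ratio 10.21). F930017D23Rik (25 UMIs, 7.14), Fam220a (60, 6.60), Rec114 (103, 6.15) and Gm10371 (35, 5.48) followed. Dhrs11 (24, 4.07) came next, before Slc25a39, a mitochondrial glutathione carrier (229, 3.81), and Ube2c, an enzyme of the anaphase-promoting complex (76, 3.71). Isca1, an iron-sulphur cluster gene (144, 3.39), Hagh (114, 3.24), Hscb, of the same process as Isca1 (37, 3.24), Psme3 (42, 3.20), Ucp2, a mitochondrial carrier (126, 3.15), and Nusap1, a spindle protein (30, 3.11), were also among the 15. All 15 were counted in globin-rich barcodes, with 5 to 79 UMIs.

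The split of α-globin between its 2 copies fell into 3 separate bands. Hba-a2 as a share of both α-globins lay between 0.365 and 4.26% in 23 members (median 1.05%), between 18.1 and 27.0% in 58 (median 22.4%) and between 36.8 and 46.7% in 21 (median 42.7%). No member lay between the bands. At the median of 4853.5 α-globin UMIs per member, counting alone gives an SD of 0.143 points at a share of 1%, 0.595 at 22% and 0.708 at 42%, small beside the gaps. The limits of 10 and 32% that separate the bands were set after the values were seen, so no test was made on them.

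The highest band was found in the libraries labelled Sod1KO and in neither WT library. WT GFP+ had 7 members in the lowest band and 4 in the middle, and WT GFP- had 1 and 5. Sod1KO GFP+ had 5, 14 and 6 members in the lowest, middle and highest bands, and Sod1KO GFP- had 10, 35 and 15. The highest band was thus 0 of 17 WT members, which allows a share of up to 17.6% by the limit of 3 counts and up to 19.5% by the Clopper-Pearson interval, and 21 of 85 Sod1KO members (24.7%, 16.0 to 35.3%). Both Sod1KO sorts held all 3 bands in like shares. The genotypes were separate pools of 4 mice, and the genotype, the pool and the mice in it cannot be told apart.

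**Figure D3:**
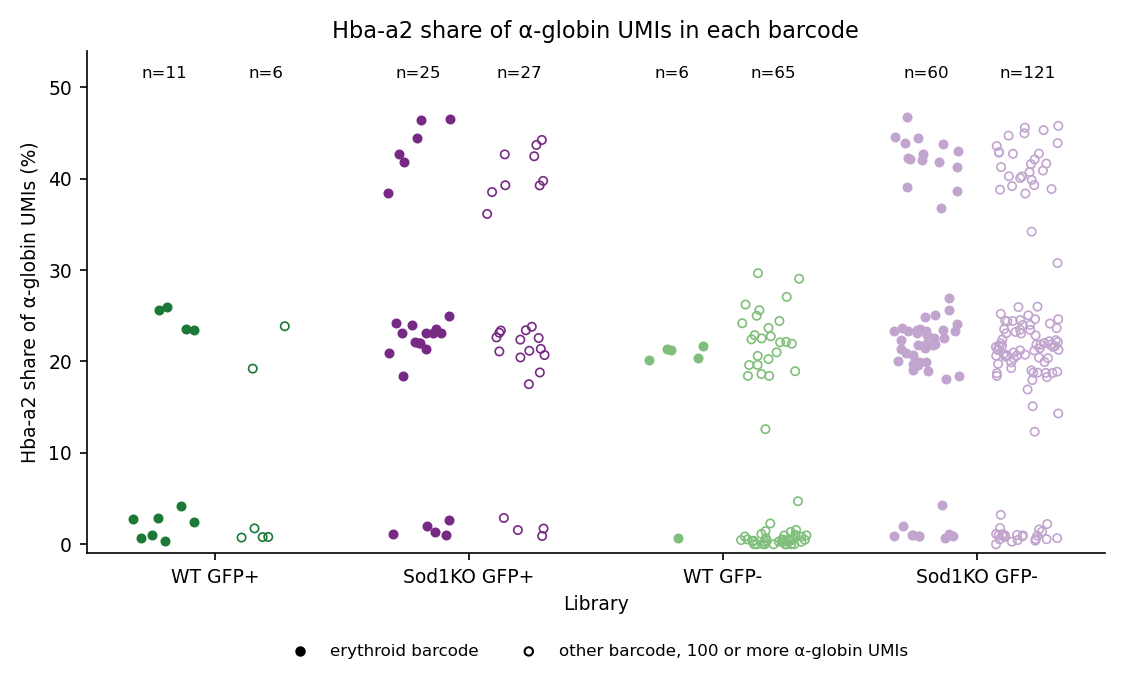
Hba-a2 as a share of both α-globins (%) in each barcode, by library. Filled points are the 102 erythroid barcodes and open circles are 219 other barcodes with 100 or more α-globin UMIs; both fall near 1, 22 and 42%, and the band near 42% holds Sod1KO barcodes only.

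The same bands appeared in barcodes that the rule left out. Of 219 other barcodes with 100 or more α-globin UMIs, 70 lay at 4.71% or below, 113 between 12.3 and 30.8% and 36 between 34.2 and 45.8%. Their band medians were 0.699, 21.7 and 41.4%. In WT they were 43, 28 and 0 of 71, a 0 that allows a share of up to 4.23% by the limit of 3 counts and 5.06% by the Clopper-Pearson interval, and in Sod1KO 27, 85 and 36 of 148 (24.3% in the highest band, 17.7 to 32.1%). These barcodes come from the same 4 libraries, so they repeat the measurement in other barcodes and not in other mice.

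Summed over the members of a library, the Hba-a2 share was 11.3% in WT (11.0 to 11.5%) and 24.0% in Sod1KO (23.8 to 24.3%) for GFP+, with 17.8% (17.4 to 18.2%) and 23.7% (23.6 to 23.9%) for GFP-. The summed shares of both WT libraries lay between bands, where no single member lay. In WT GFP+ the median of the per-barcode shares was 2.91%, since 7 of its 11 members were in the lowest band.

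Within Sod1KO, the bands had like depth and like β-globin splits. Median UMIs were 12529, 14933 and 13133 in the lowest, middle and highest bands, and the median Hbb-bt shares of β-globin were 15.3, 17.1 and 17.0%. Alas2 was at 9.67, 8.07 and 8.40 UMIs per 10000 UMIs in the same order, with overlapping intervals. Mkrn1 was at 6.64 (5.53 to 7.92), 6.13 (5.56 to 6.75) and 9.70 (8.56 to 11.0). In GFP+ it was at 6.04 (4.04 to 8.67), 5.98 (4.92 to 7.19) and 8.94 (6.84 to 11.5), and the intervals overlapped. In GFP- it was at 6.85 (5.55 to 8.37), 6.19 (5.52 to 6.92) and 9.96 (8.63 to 11.4). There the lowest and middle bands had intervals below that of the highest band. The 2 members with the most Mkrn1 per UMI, at 28.3 and 26.6 per 10000, both lay in that band in Sod1KO GFP-. Bpgm was at 7.71 (6.50 to 9.07), 10.3 (9.51 to 11.0) and 7.91 (6.88 to 9.05). In GFP+ it was at 8.95 (6.48 to 12.1), 11.8 (10.3 to 13.5) and 11.0 (8.65 to 13.8), and the intervals overlapped. In GFP- it was at 7.28 (5.94 to 8.84), 9.67 (8.83 to 10.6) and 6.86 (5.76 to 8.11). There only the middle and highest bands had separate intervals. The intervals treat UMIs as independent and leave out the spread between barcodes.

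The β-globin split varied without separate bands. The Hbb-bt share of β-globin UMIs per member ran from 0.800 to 26.0% with a median of 16.2%. Summed per library it was 16.3% in WT (16.0 to 16.6%) and 18.4% in Sod1KO (18.2 to 18.6%) for GFP+, with 11.3% (11.0 to 11.6%) and 17.2% (17.0 to 17.3%) for GFP-. The per-barcode ranges of all 4 libraries overlapped, from 0.800 to 22.5%, 1.01 to 24.8%, 4.26 to 16.8% and 0.833 to 26.0%.

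Barcodes with a low Hbb-bt share were shallow and had low levels of Bpgm and Mkrn1. The 23 members under 10%, a limit set after the values were seen, had a median of 4922 UMIs, against 16184 in the 79 others. Per 10000 UMIs, Bpgm was at 3.44 (2.51 to 4.58) in the 23 and 9.56 (9.03 to 10.1) in the 79. Mkrn1 was at 0.971 (0.517 to 1.66) and 7.24 (6.78 to 7.72). Alas2 was at 8.51 (7.02 to 10.2) and 8.77 (8.26 to 9.30), so its intervals overlapped. The low group held 3, 4, 2 and 14 members of WT GFP+, Sod1KO GFP+, WT GFP- and Sod1KO GFP-, and so was present in every library.

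The difference was also found in the 68 members with 80% globin or more. There the 17 members under 10% had Mkrn1 at 1.03 and Bpgm at 2.37 per 10000 UMIs, and the 51 others 7.52 and 10.2. Across all 102 members the Hbb-bt share had a Pearson r of 0.669 with UMIs (Spearman 0.654), 0.631 with the Bpgm level (0.655), 0.487 with Mkrn1 (0.581) and 0.107 with Alas2 (0.156). Across the 68 the values with UMIs, Bpgm and Alas2 were 0.794, 0.683 and 0.230. These are correlations across barcodes of 4 libraries that share depth within a barcode, and the part of depth in them was not tested.

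**Figure D4:**
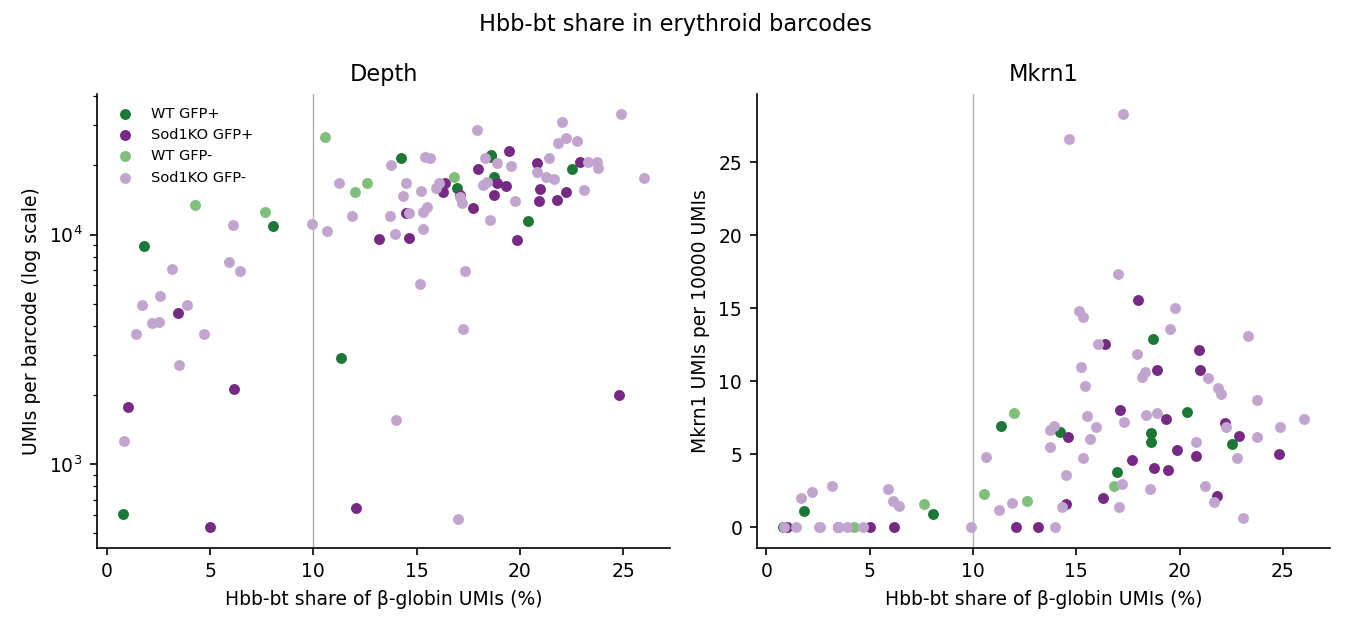
Hbb-bt share of β-globin UMIs (%) in each of the 102 erythroid barcodes against UMIs per barcode (left, log scale) and Mkrn1 UMIs per 10000 UMIs (right), coloured by library, with a line at 10%. Of the 23 barcodes left of the line, 9 had a Mkrn1 UMI, and of the 79 right of it 76 did.

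β-globin gave somewhat more UMIs than α-globin in every library. Its share of globin UMIs was 55.5% in WT (55.2 to 55.8%) and 58.1% in Sod1KO (57.9 to 58.3%) for GFP+, with 54.6% (54.3 to 54.9%) and 60.1% (60.0 to 60.2%) for GFP-. It was higher in Sod1KO than in WT in both sorts, and the per-barcode ranges overlapped, with quartiles of 51.8 to 56.9% in WT GFP+ and 56.5 to 60.5% in Sod1KO GFP+. In GFP- the quartiles were 53.5 to 55.3% in WT and 57.2 to 63.7% in Sod1KO, so the quartile range of Sod1KO lay above that of WT in GFP- and crossed it in GFP+.

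The number of erythroid list genes that differed by 2-fold between genotypes depended on the sort and on the members kept. Levels are CPM from UMIs summed over members, and genes with 20 or more UMIs in 1 of the groups were counted. In GFP+, 0 of 23 list genes were 2-fold or more higher in Sod1KO and 1 was lower, where 17.2% and 10.2% of all 215 genes were. In GFP-, 13 of 46 were higher and 3 lower, against 15.9% and 12.9% of 1337 genes. With both sorts summed, 2 of 50 were higher and 3 lower, against 14.6% and 6.53% of 1578 genes, and the median log2 ratio was -0.14 for the list genes and 0.07 for all. In globin-rich barcodes alone, the summed counts were 0 higher and 6 lower of 23, and without the members in which markers of other cell types held 1% or more of UMIs outside the globins they were 0 and 12 of 30. In GFP+ without those members 14 of 21 were lower. The share over all genes was not computed for these subsets, so these counts cannot be read as particular to the list genes.

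Alas2 was at 9388 CPM in WT and 7626 in Sod1KO for GFP+, with 6704 and 3801 for GFP-. For GFP+ its log2 ratio of Sod1KO to WT was -0.30 (-0.60 to 0.003), and for GFP- it was -0.82 (-1.11 to -0.52). With both sorts summed it was -0.87 (-1.06 to -0.66), beyond the ratio of either sort, in a sum where GFP+ gave 11 of the 17 WT members and 25 of the 85 Sod1KO members. The summed ratio lay between -1.32 and -0.29 with all UMIs as the denominator, at 80 and 95% globin, with per-barcode means and without members holding other cell type markers. In globin-rich barcodes, 7, 9, 4 and 22 in the same order, Alas2 was at 28774, 19589, 45045 and 16343 CPM. Per 10000 UMIs the members ran from 0 to 21.0 in WT and 0 to 15.4 in Sod1KO for GFP+, with 0 to 19.7 and 0 to 58.0 for GFP-, so single barcodes of the 2 genotypes overlapped in both sorts.

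Bpgm was at 10282, 10178, 1924 and 3881 CPM in WT GFP+, Sod1KO GFP+, WT GFP- and Sod1KO GFP-, and its log2 ratio of Sod1KO to WT was -0.01 (-0.29 to 0.27) for GFP+ but 1.01 (0.51 to 1.56) for GFP-. The sum of both sorts gave -0.29 (-0.51 to -0.06), a decrease that neither sort showed, and 0.29 with all UMIs as the denominator. Mkrn1 was at 6003, 6065, 1632 and 3247 CPM in the same order, with a ratio of 0.01 (-0.35 to 0.38) in GFP+ and 0.99 (0.45 to 1.59) in GFP-. Its summed ratio was -0.02 (-0.29 to 0.27), with 0.56 (0.29 to 0.85) for all UMIs as the denominator and -0.51 (-0.82 to -0.19) without members holding other cell type markers, so its direction depended on the setting. In globin-rich barcodes Bpgm was at 33726, 24244, 16216 and 16640 CPM and Mkrn1 at 18868, 10667, 13213 and 16541 in that order. These values came from 7, 9, 4 and 22 barcodes in that order. WT GFP- gave only 27 Bpgm and 22 Mkrn1 UMIs there, among 1665 UMIs outside the globins. The listed values ranked differently from those over all members, with Sod1KO GFP+ the lowest for Mkrn1 and both GFP- libraries close for Bpgm. No interval was computed for these levels, so the order of the libraries is not established.

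The genes with the largest genotype ratios in the same direction in both sorts rested on few barcodes. Higher in Sod1KO were Hist1h1c (log2 ratio 3.93), Jak1 (3.17), Mgp (3.07), Top1 (2.87), Slc4a1 (2.65), Hist1h2bc (2.65), Lgals1 (2.65), Tpm2 (2.47), Psma2 (2.26) and Arhgap26 (2.17). Each had 1 or 2 UMIs in the members of WT, found in 1 or 2 of 17 barcodes. Slc4a1, the only one of them in the erythroid lists, had 1 UMI in WT GFP+, 0 in WT GFP-, 8 in Sod1KO GFP+ and 34 in Sod1KO GFP- (interval 0.09 to 7.99). The intervals of Tpm2 (-0.10 to 7.81), Psma2 (-0.32 to 7.61) and Arhgap26 (-0.42 to 7.52) held 0. All of the genes higher in Sod1KO except Hist1h2bc had 0 UMIs in 1 WT sort, where the floor of 3 UMIs was used. For Slc4a1 in GFP- the log2 ratio was then 0.06, with a lower bound of -0.31. Of the 103 Hist1h1c UMIs, 51 lay in 1 barcode.

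Lower in Sod1KO were the heat shock genes Hspa1b (-2.99), Hsp90aa1 (-2.36) and Hspa1a (-2.08), with H1f0 (-2.12), Ednrb (-2.10), Timp4 (-1.75), Sertad1 (-1.71), Smco4 (-1.69), Clic5 (-1.67) and Atp6v1e1 (-1.67). In WT these lay in 2 to 4 barcodes, and in globin-rich barcodes they had 0 to 2 UMIs each. For Hspa1b, 27 of 57 UMIs came from 1 barcode.

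Between sorts, the counts of list genes depended on the denominator and on the members kept. In WT, 14 of 20 list genes were 2-fold or more higher in GFP+ and 2 lower, where 18.9% and 17.6% of all 148 genes were. In Sod1KO, 9 of 46 were higher and 2 lower, where 6.52% and 32% of 1349 genes were. GFP+ members held more globin, 89.8% of UMIs in WT and 89.0% in Sod1KO, than GFP- members at 83.3% and 77.8%. With all UMIs as the denominator the counts were 9 higher in WT, and 0 higher and 9 lower in Sod1KO. In globin-rich barcodes alone they were 8 of 18 higher and 0 lower in WT, and 0 higher and 6 lower of 22 in Sod1KO. For these alternatives the share over all genes was not computed.

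A large part of the globin UMIs lay outside the erythroid barcodes. They were 16.8% of the globin UMIs of the library in WT and 32.8% in Sod1KO for GFP+, with 54.1% and 51.6% for GFP-. Almost all of these were in 7, 29, 107 and 136 other barcodes with 100 or more globin UMIs, which held 15.8, 32.3, 53.1 and 51.1% of the globin UMIs of the library. Most other barcodes with a globin UMI had fewer than 10, namely 1025, 1352, 737 and 3087 barcodes with a median of 1 UMI. The share of other barcodes with any globin UMI was 18.9, 19.1, 42.6 and 50.3% at median depths of 10542, 12057.5, 6138 and 13819.5 UMIs, higher in both GFP- libraries. It was similar in barcodes with 3 or more Schwann markers and in those with 3 or more mesenchymal markers, at 18.4 and 19.4% in WT GFP+ and 20.3 and 19.6% in Sod1KO GFP+, cells that should lack globin. In barcodes with 1 to 9 globin UMIs the summed Hba-a2 share was 11.5, 29.0, 13.9 and 27.9% in WT GFP+, Sod1KO GFP+, WT GFP- and Sod1KO GFP-, higher in both Sod1KO libraries as in the erythroid barcodes.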

How the data were processed

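The deposited files held UMI counts per gene and barcode for 4 droplet libraries (10x 3′ gene expression), made by the authors with Cell Ranger 7.1.0 on mm10 per the labels and file headers; the study's methods name another Cell Ranger version and 2 mouse builds. The count matrices held 32285 genes and were used as deposited, before the doublet, free RNA and integration steps that the study's methods give. No doublet caller was run, because the rule for erythroid barcodes takes every deposited barcode; markers of other cell types are given instead. The members and the gene lists were chosen with earlier results of these data known.

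UMIs were summed over erythroid barcodes per library and set per 1000000 UMIs outside the 4 globins (CPM), because the rule fixes the globin share. Ratios carry a 95% conditional binomial interval, shares a Clopper-Pearson interval and levels a Poisson interval. A count of 0 in a ratio was set to 3 UMIs, no ratio was taken where both counts were 3 or fewer or where that floor decided the sign, and genes needed 20 UMIs. The ratio code was tested on simulated data. Named were the list genes with 20 or more UMIs, the 15 genes outside the lists with the largest lowest ratio of members to other barcodes over the libraries with 20 or more members, and the 10 genes up and 10 down between genotypes with 1 direction in both sorts. Values of some genes that this rule names are not reported here, but they count in the totals. Of the list genes, 1 was not found among the matrix symbols, and for Aldoa, a symbol with 2 identifiers, the first was used. Of the 129 list genes, 100 had a RefSeq promoter. Analyses used Python 3.11.15, numpy 2.4.6, scipy 1.17.1 and pandas 2.3.3. With 1 library per group, intervals cover counting error only.

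Depth ran from 21959719 to 105954116 UMIs per library. Tried as alternatives were a globin share of 80%, 500 globin UMIs, the study's cell filter, per-barcode medians or means, all UMIs as the denominator, 50 UMIs per gene, and leaving out members with 1% or more of other cell type markers. A globin share of 95% was added after the data were seen, as were the band limits of 10 and 32%.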

Additional observations from a re-analysis of the deposited data

How the results depend on the processing

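Order of libraries below is WT GFP+, Sod1KO GFP+, WT GFP- and Sod1KO GFP-, and only values outside the main 95% interval, or counts changed by over 1.5 times, are given. With a minimum globin share of 80%, the Hba-a2 share was 11.7 and 16.4% in the WT sorts and 23.4% in GFP- of Sod1KO. The Hbb-bt share was 15.9, 12.7 and 16.7% in the same 3 libraries, the β-globin share 57.8 and 59.5% in the Sod1KO libraries, and the erythroid share 0.546% in Sod1KO GFP-. With a minimum of 95%, chosen after seeing the data, the Hba-a2 share was 12.6% in WT GFP+ and 16.4% in WT GFP-, and the Hbb-bt share 16.8 and 12.7% in the WT sorts and 14.5% in GFP- of Sod1KO. The β-globin share was then 55.8, 57.0 and 60.5% in WT GFP+, Sod1KO GFP+ and Sod1KO GFP-, and the erythroid share 0.124 and 0.333% in the Sod1KO libraries. Under the study's cell filter the Hba-a2 shares were 10.7, 23.3, 14.0 and 26.0%, the Hbb-bt shares 16.9, 20.1, 9.48 and 19.4%, the β-globin shares 56.3 and 56.7% in WT, and the erythroid shares 0.175 and 0.571% in Sod1KO. Medians of the per-barcode shares were 2.91, 23.1, 20.8 and 22.7% for Hba-a2, 17.0, 18.0 and 15.6% for Hbb-bt in WT GFP+ and both Sod1KO libraries, and 54.4 and 58.9% for β-globin in the GFP+ libraries. A minimum of 500 globin UMIs moved no share out of its interval. The Hba-a2 share of Sod1KO was above that of WT in both sorts under every alternative tried.

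Counts of list genes past 2-fold depended on the members kept. The share over all genes was computed for the main setting only, so the counts below describe the list genes alone. For Sod1KO over WT in GFP+, 3 were lower at 80% globin, 7 at 95%, 7 with per-barcode means and 14 without members holding other cell type markers. In GFP-, 4 were higher and 7 lower at 80%, 4 and 6 at 95%, 4 and 6 without members holding other markers, and 13 lower with per-barcode means. With both sorts summed, 0 were higher and 10 lower at 80%, 0 and 6 at 95%, 4 and 12 with means, 0 and 12 without those members, 7 and 0 with all UMIs as the denominator, and 0 higher with 50 UMIs. For GFP+ over GFP- in WT, 6 were higher and 1 lower at 80%, 8 and 0 at 95%, 6 and 1 with means, 5 higher without those members and 9 higher with all UMIs as the denominator. In Sod1KO these were 0 and 1, 0 and 6, 4 and 9, 0 and 8, and 0 and 9. The Bpgm ratio of Sod1KO to WT turned to 0.29 with all UMIs as the denominator. Of the 71 ratios of single genes that could be taken under an alternative, 48 stayed within the main interval. Some main intervals were wide, such as 0.63 to 8.49 for Jak1, so this count does not measure how stable the ratios are. The cause of the changes was not tested.

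No paired analysis was possible because each group is 1 library. Each library held 6 to 60 members. Intervals over UMIs leave out the spread between barcodes, and pooled mice give no spread between animals. Genotype, pool and library cannot be told apart. Levels over all members hold transcripts of other cell types in amounts that differ by library. The splits within the α and β pairs rest on reads that map to 1 copy.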
